A study of Mus musculus with 9 samples.

Results

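The genes described here are the mouse genes that 3 target prediction algorithms, Targetscan, PITA and Pictar, all named as targets of *miR-1*. They come from the consensus list of 89 genes in the study's source table. Of these, 6 were left out by a rule on gene names and name prefixes, so that 83 remained as members. The counts and medians of the members therefore do not cover the whole consensus list. The list had been narrowed by RNA-seq of late embryonic hearts that lacked *miR-1* altogether, to genes whose FPKM there was not below that of wild-type hearts, so the arrays described here did not choose it. A probe set listed for that gene alone was found for 79 of the 83 members, among 22180 genes measured in the same way. Among the others, *Map4k3* and *Sp2* had no such probe set, and *Smap1* had only one that is listed for *B3gat2* as well. *Hiat1* was measured under its present symbol *Mfsd14a*. For the 9 members with several probe sets, the probe set with the highest mean over all arrays stands for the gene.

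RNA came from whole hearts of mice at postnatal day 2 on a mixed 129 x C57BL/6 background, with 3 arrays for each of 3 genotypes. Wild-type hearts carried every copy of *miR-1*. The *miR-1-1* null hearts lacked *miR-1-1* and kept *miR-1-2*, and the double-heterozygous hearts were *miR-1-1* +/- and *miR-1-2* +/-, with 1 allele of each locus left. The deletions are carried in the germline and so are present in every cell of the heart. Both loci encode the same mature *miR-1*, so none of the groups lacked it altogether. The labels say nothing more about the animals, nor whether each array is a separate animal. The p-values measure only the spread between these samples, which may be in part technical. In whole hearts, fewer cells of a type and less RNA per cell cannot be told apart.

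*miR-1* is a microRNA of heart and skeletal muscle. A microRNA guides an Argonaute protein to messenger RNAs that pair with its seed, a short run of bases near its 5′ end, and the bound messenger is translated less and degraded sooner. Prediction algorithms look for such seed matches in 3′ UTRs and weigh their conservation, pairing energy or accessibility. The seed of *miR-1* is shown here on *miR-206*, another muscle microRNA of the same seed family, because the predictions that chose the members rest mainly on it.
mmu-miR-206-3p: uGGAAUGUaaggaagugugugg
The capitals mark the seed, bases 2 to 8 from the 5′ end. This mature sequence lies at chr1:20679055-20679076 on the plus strand of GRCm38.p6, as given by RefSeq. A perfect seed match in a messenger reads ACAUUCC, the reverse complement of those capitals. Of the mature mouse microRNAs in the RefSeq table used, 3 carried this seed, *miR-206*, *miR-6349* and *miR-6382*. *miR-1* carries it too, and its own mature sequence is not printed here. The position of target sites in the members was not analysed here.

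All values are log2 expression levels after RMA, so that a difference of 1 stands for a doubling of the signal. The arrays correlated with each other at 0.982 to 0.988 over all genes. *Mir133a-2*, the precursor gene beside *miR-1-1*, lay at 3.07 to 4.51 in null hearts, below the 5.45 to 6.38 of wild-type hearts and the 5.33 to 6.32 of double-heterozygous hearts. It lies outside the deleted sequence. The *Mir1a-1* probe set itself was dim in all genotypes, at 0.92 to 2.21. *Xist* was carried by wild-type replicate 1 and double-heterozygous replicate 7 and by no null array. All 10 cardiomyocyte markers were above the level of olfactory and vomeronasal receptor genes, with a summed level of 14.07 to 14.27 over the 9 arrays. That receptor level, the upper quartile of the receptor genes, was 1.74 in wild-type, 1.78 in null and 1.95 in double-heterozygous hearts. Of the members, *Gdf6* and *Snap25* in wild-type, *Gdf6* in null and *Cpeb1*, *Fosb*, *Gdf6* and *Snap25* in double-heterozygous hearts had means at or below it.

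The first comparison asked whether the predicted targets stood higher in hearts without *miR-1-1*. In null hearts the members were spread evenly about the wild-type level. Of the 79, 40 lay above wild-type and 39 below, with a median log2 fold change of 0.00069 beside -0.0066 over all genes, of which 48.0% lay above wild-type. The values ran from -0.54 for *Tpm3* to 0.39 for *Phf6*, and the middle of the distribution, from the lower to the upper quartile, reached from -0.08 to 0.12. No member passed limma's test at an adjusted p under 0.05, and neither did any other gene (background 0.0%). The lowest adjusted p of a member was 0.816 by limma. At an unadjusted p under 0.05, 3 members stood higher and 1 lower, which is 5.06% of the 79 beside 5.72% of all genes. By direction the background was 2.57% higher and 3.15% lower. *Snap25*, *Mmd* and *Mnt* were the 3 higher members and *Pdik1l* the lower one. Of the members, 0 met the study's thresholds, namely an unadjusted p below 0.0025 together with a fold over 1.5 or under 0.5, which 0.126% of all genes met. Groups without overlap, in which every null array stood on the same side of every wild-type array, were found for 3 higher members, *Edn1*, *Mnt* and *Snap25*, and for the lower *Mylk*, 5.06% of the members beside 8.26% of all genes (3.63% higher and 4.63% lower). Leaving out null replicate 6 brought the count at an unadjusted p under 0.05 to 2, and leaving out wild-type replicate 1 brought it to 7.

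In double-heterozygous hearts, 37 members lay above wild-type and 42 below. The median was -0.02, as over all genes, where it was -0.02 and 44.6% of genes lay above wild-type. The range was wider than in null hearts, from -0.53 for *Mab21l1* to 0.72 for *Ddx5*. At an unadjusted p under 0.05, 4 members were higher and 6 lower, 12.7% of the members beside 10.6% of all genes. The background by direction was 4.45% higher and 6.15% lower. The 4 higher members were *Ddx5*, *Phf6*, *Mmd* and *Dlg4*, and the 6 lower ones were *Mylk*, *Kctd13*, *Api5*, *Sh3bgrl3*, *Mab21l1* and *Wdr1*. After quantile or cyclic loess normalization, *Kctd13*, *Api5*, *Sh3bgrl3* and *Wdr1* were no longer at an unadjusted p under 0.05 in limma. The members at such a p then numbered 8 and 7, beside 9.40% and 9.27% of all genes. *Ddx5* alone met the study's thresholds (background 0.541%), and without both arrays that carry *Xist* it was *Phf6* instead. At an adjusted p under 0.05, 0 members passed limma's test, with 0.153 as their lowest adjusted p, beside 4 of all genes (0.018%). Groups did not overlap for 2 higher members, *Ddx5* and *Dlg4*, and 7 lower ones, 11.4% beside 13.1% of all genes (5.15% higher and 7.95% lower). The count of 10 at an unadjusted p under 0.05 became 6 without double-heterozygous replicate 7, 5 without replicate 8 and 6 without wild-type replicate 2.

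Set directly against null hearts, double-heterozygous hearts had 28 members above and 51 below, with a median of -0.07 beside -0.02 over all genes and 45.4% of all genes above. The 2 members higher at an unadjusted p under 0.05 were *Ddx5* and *Dlg4*, and the 3 lower ones were *Sec63*, *Lin7c* and *Ube2h*, 6.33% of the members beside 7.39% of all genes (3.59% higher and 3.79% lower). *Ddx5* alone met the study's thresholds (background 0.302%). Of the members, 0 reached an adjusted p under 0.05 in limma (background 0.0%), the lowest being 0.361. Groups did not overlap for 3 higher and 10 lower members, 16.5% beside 10.0% of all genes (4.3% higher and 5.75% lower). The median depended on the scaling, for it was -0.0087 after quantile normalization and -0.0070 after cyclic loess. The count of 5 at an unadjusted p under 0.05 was 3 without double-heterozygous replicate 7 and 2 without null replicate 4. All 3 comparisons draw on the same 9 arrays, and each pair of them shares a genotype.

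**Figure D1:**
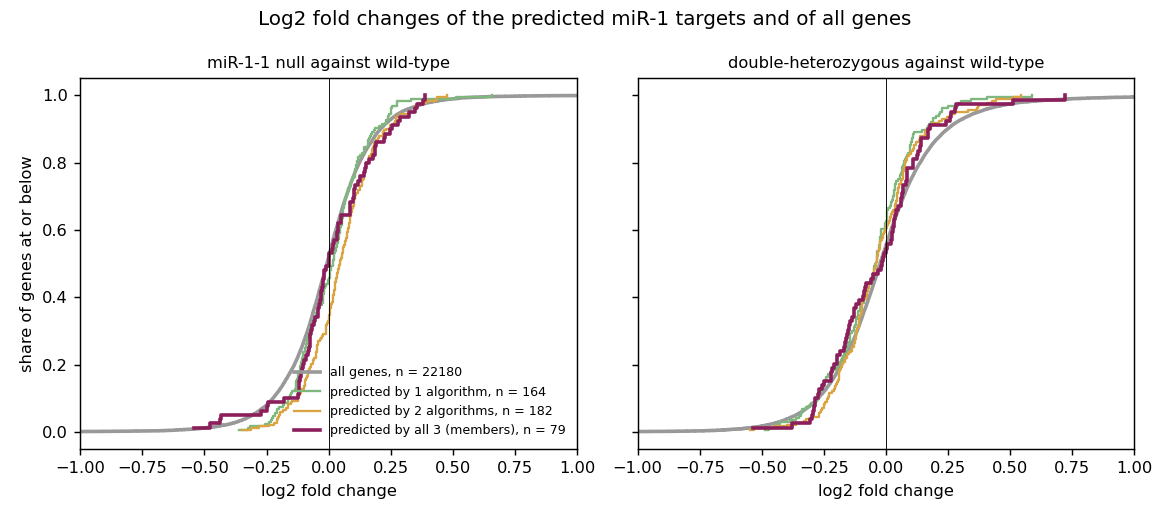
Cumulative share of genes (vertical axis) against the log2 fold change from wild-type (horizontal axis) in null hearts (left) and double-heterozygous hearts (right), for the 79 members, for genes that 2 algorithms (182) or 1 algorithm (164) predicted, and for all 22180 genes. The curve of the members crosses 0 close to the curve of all genes in both panels, while that of the genes predicted by 2 algorithms lies to the right of it in null hearts, with 66.5% above 0, and 49 and 146 of all genes lie outside the drawn range.

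How large a rise of a member these arrays leave room for can be read from its interval. The 95% interval of a member's log2 fold change had a median half-width of 0.27, equal to a 1.21-fold change, and half-widths ran from 0.18 to 0.57. Over all genes the median was 0.31, or 1.24-fold, and the members' median residual SD was 0.14 beside 0.17. In null hearts the upper end of the interval lay below a 1.5-fold rise for 73 of 79 members, 92.4%, beside 88.4% of all genes. In double-heterozygous hearts this held for 74, or 93.7%, beside 86.3%. Absolute log2 fold changes over 0.5 were measured for 1 member in null hearts and 3 in double-heterozygous hearts, 1.27% and 3.80% of the members beside 2.26% and 4.32% of all genes. Of the members, 33 (41.8%) had equal values on arrays of the same genotype, as did 40.1% of all genes, which can lower their estimated spread.

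In null hearts the genes on which all 3 algorithms agreed had a lower median, 0.00069, than those named by fewer. With 1 array left out, this median ran from -0.015 to 0.028. Of 182 measured genes that 2 of the algorithms named, 121 (66.5%) lay above wild-type in null hearts, beside 48.0% of all genes. Their median was 0.05. At an unadjusted p under 0.05 there were 12 higher and 1 lower genes, 7.14% beside 5.72% of all genes (2.57% higher and 3.15% lower). Of 164 genes named by 1 algorithm, 90 (54.9%) lay above, with a median of 0.02 and 5 higher and 1 lower, which is 3.66%. In double-heterozygous hearts the same groups had 73 (40.1%) and 61 (37.2%) genes above wild-type, beside 44.6% of all genes, and medians of -0.04 for each. At an unadjusted p under 0.05 there were 9 higher and 9 lower genes in the former, and 3 higher and 11 lower in the latter. These are 9.89% and 8.54%, beside 10.6% of all genes (4.45% higher and 6.15% lower). There the members' median of -0.02 was the highest of the 3 groups, and the differences between groups were not tested. All 3 groups were narrowed by the same RNA-seq criterion and by the same rule on gene names.

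Most members were expressed at a medium level. A mean level from 3 to 5 was found for 35 members, from 5 to 7 for 23 and over 7 for 12. In null hearts the median of these groups was -0.02, -0.01 and 0.07, beside -0.02, -0.02 and -0.0018 for all genes of the same level. In double-heterozygous hearts it was 0.0019, -0.11 and 0.0046, beside -0.06, -0.10 and -0.06. Of the 35 members from 3 to 5, 51.4% lay above wild-type in double-heterozygous hearts, where 37.5% of all genes of that level did. Of the 12 brightest members 50.0% did, beside 33.6%. In the direct comparison 34.3%, 39.1% and 33.3% of the members in these groups were above null hearts, beside 39.8%, 27.2% and 30.9% of all genes of the same level, so the share below was not above that of all genes at levels from 5 upwards.

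The members as a body lay close to their own mean level on every array. The median deviation of the members from their own mean over 9 arrays lay between -0.04 on double-heterozygous replicate 7 and 0.03 on wild-type replicate 1. These are the arrays that carry *Xist*, and the medians of all genes on them were -0.014 and 3.3e-05. Null replicate 6 held the highest value for 17 of the 79 members and wild-type replicate 1 for 14, while wild-type replicate 2 held the lowest for 14. On null replicate 6, 50 members lay above their own mean, on wild-type replicate 1 it was 49, and on double-heterozygous replicates 7 and 8 it was 30 each.

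*Ddx5*, a DEAD-box RNA helicase that takes part in splicing, transcription and microRNA processing, was the member farthest from wild-type. Its levels were 7.85, 8.16 and 8.04 in wild-type, 8.07, 8.16 and 7.92 in null and 8.59, 8.61 and 9.01 in double-heterozygous hearts. Every double-heterozygous array stood above every other array, and null and wild-type arrays overlapped. The log2 fold change against wild-type was 0.72 (standard error 0.14, 95% interval 0.41 to 1.04), a 1.65-fold difference, with an unadjusted p of 0.000524 and an adjusted p of 0.153 from limma. Against null hearts it was 0.69 (unadjusted p = 0.000752, adjusted p = 0.361 from limma), and between null and wild-type hearts it was 0.04. Leaving out 1 array at a time gave 0.59 to 0.80 against wild-type, and without wild-type replicate 1 the unadjusted p, 0.0028, no longer met the study's threshold. Against null hearts it missed that threshold without null replicate 4 or 6, and without double-heterozygous replicate 9 the log2 fold change of 0.55 fell short of the fold. A second probe set, listed for *Ddx5* together with *Mir3064*, a microRNA gene within it, read 8.12, 8.19 and 8.03 in wild-type, 8.38, 8.37 and 8.12 in null and 8.62, 8.64 and 8.54 in double-heterozygous hearts. Here too every double-heterozygous array was above all others, by a log2 fold change of 0.48 against wild-type (adjusted p = 0.203 from limma over all probe sets) and of 0.31 against null hearts. With 3 arrays against 3, groups that do not overlap give p = 0.1 in a two-sided exact permutation test, which is its lower limit.

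**Figure D2:**
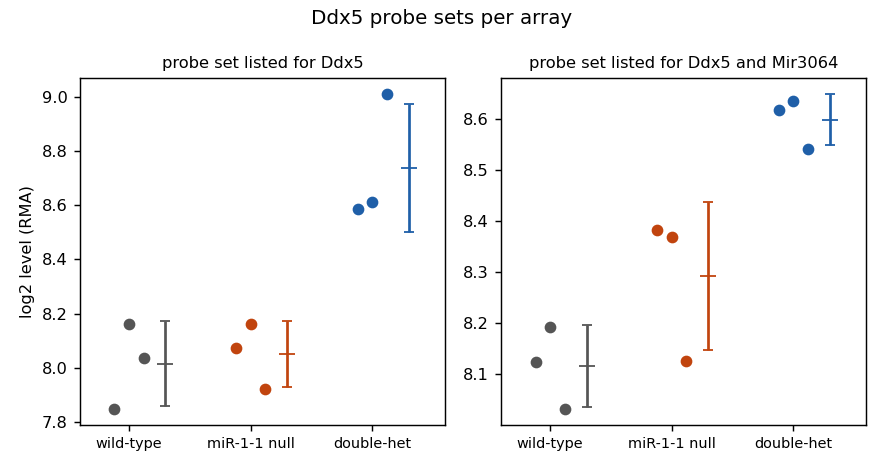
Log2 level (vertical axis) of 2 probe sets listed for *Ddx5* on each of the 9 arrays (points, with the mean and SD of each genotype as a bar beside them). In both panels the 3 double-heterozygous arrays, at 8.59 to 9.01 on the left and 8.54 to 8.64 on the right, stand above the other 6.

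The other members that handle RNA are *Cpeb1*, which binds the polyadenylation element of messengers, *Zfp36l1*, which speeds the decay of messengers with AU-rich elements, *Rngtt*, the capping enzyme, and *Poldip3*, an export and translation factor. In null hearts all 5 members of this group lay above wild-type, between 0.04 for *Ddx5* and 0.19 for *Poldip3*, with a median of 0.15 and none at an unadjusted p under 0.05. In double-heterozygous hearts 3 of 5 did, and *Ddx5* alone was at such a p.

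The members of the cytoskeleton and the contractile apparatus lay mostly below wild-type in both mutants. Of 7, *Mylk*, *Sh3bgrl3*, *Wdr1*, *Tpm3*, *Cnn3*, *Anxa4* and *Anxa2*, 6 lay below wild-type in null and 6 in double-heterozygous hearts, with *Anxa2*, an annexin that binds membranes and actin, as the exception at 0.02 and 0.04. Of all genes 48.0% and 44.6% lay above wild-type. At a level from 3 to 5 it was 45.9% and 37.5%, from 5 to 7 43.6% and 25.7%, and over 7 49.3% and 33.6%. The 7 members were spread over all 3 of these ranges, and both mutants were set against the same wild-type arrays. In null hearts *Anxa4* lay below only through wild-type replicate 2, at 5.11. The other wild-type arrays and all null arrays read 5.03. The group's median was -0.10 in null and -0.25 in double-heterozygous hearts. At an unadjusted p under 0.05, 0 passed in null hearts and 3 were lower in double-heterozygous hearts, where 6.15% of all genes were, and 0 passed limma's adjusted test in either. Markers of smooth muscle, whose cells also use several of these genes, had a summed level of 8.83 to 9.67 in wild-type, 9.91 to 10.26 in null and 9.87 to 10.29 in double-heterozygous hearts, with 2 of 5 markers higher at an unadjusted p under 0.05 in each mutant. Those of fibroblasts spanned 10.73 to 10.75, 10.61 to 10.75 and 10.47 to 10.72 in the same order, with 3 of 5 lower in double-heterozygous hearts. The part of these cell types in the values was not tested.

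*Mylk* encodes the myosin light chain kinase of smooth muscle and, from a promoter of its own, Telokin. Its levels were 3.55, 3.65 and 3.65 in wild-type, 3.50, 3.49 and 3.50 in null and 3.38, 3.36 and 3.31 in double-heterozygous hearts. The 3 genotypes did not overlap anywhere, with wild-type highest and double-heterozygous lowest. Of all genes, 4.63% in null and 7.95% in double-heterozygous hearts lay below wild-type without overlap. Between the mutants, 5.75% lay lower in double-heterozygous hearts. The share of genes with this order over all 3 genotypes was not counted. Null replicates 4 and 6 had equal values. The log2 fold change of *Mylk* was -0.12 in null hearts (standard error 0.08, unadjusted p = 0.155) and -0.27 in double-heterozygous hearts (unadjusted p = 0.00813, adjusted p = 0.327 from limma). It stayed between -0.30 and -0.25 in the latter whichever array was left out. Between both mutants it was -0.14 (unadjusted p = 0.104). The probe set does not tell the kinase from Telokin.

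*Sh3bgrl3*, a small thioredoxin-like protein, had levels of 8.21, 7.85 and 7.79 in wild-type, 7.96, 7.75 and 7.84 in null and 7.65, 7.65 and 7.66 in double-heterozygous hearts. The double-heterozygous arrays were the lowest 3 of all 9. Wild-type replicate 1 stood apart, and without it the log2 fold change of -0.30 in these hearts became -0.17 and no longer passed at an unadjusted p under 0.05. *Wdr1*, which helps cofilin to take actin filaments apart, had 7.07, 6.79 and 6.87 in wild-type, 6.79, 6.83 and 6.81 in null and 6.61, 6.58 and 6.79 in double-heterozygous hearts. The groups met at 6.79, the log2 fold change in double-heterozygous hearts was -0.25, and it was -0.17 without wild-type replicate 1. *Tpm3*, a tropomyosin, read 5.32, 5.25 and 6.27 in wild-type, 4.76, 5.30 and 5.14 in null and 5.20, 5.28 and 5.23 in double-heterozygous hearts. A single wild-type array, replicate 3, set it apart. Without it the log2 fold changes of -0.54 and -0.38 became -0.21 and -0.05, and the dimmer of its probe sets gave -0.01 and 0.04.

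**Figure D3:**
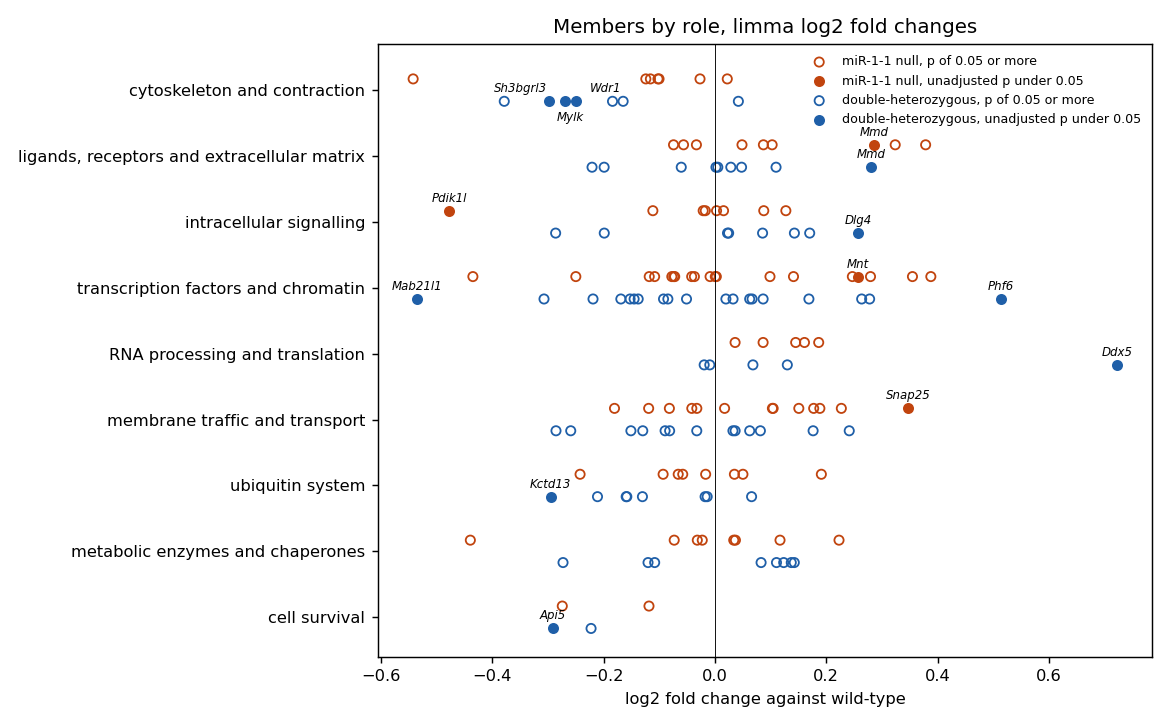
Log2 fold change against wild-type (horizontal axis) of each of the 79 members, in 9 groups by role, in null hearts (orange) and double-heterozygous hearts (blue), with filled points at an unadjusted p under 0.05 in limma. The cytoskeletal members lie mostly left of 0 in both, and *Ddx5*, at 0.72 in double-heterozygous hearts, lies farthest to the right.

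Ligands, receptors and matrix proteins made up 9 members, of which 6 lay above wild-type in null and 6 in double-heterozygous hearts, with medians of 0.09 and 0.0052. *Mmd*, a membrane protein of maturing macrophages that also occurs in other cells, was the only member at an unadjusted p under 0.05 against wild-type in both mutants. Its levels were 4.18, 4.14 and 4.51 in wild-type, 4.66, 4.51 and 4.52 in null and 4.51, 4.51 and 4.65 in double-heterozygous hearts. Wild-type replicate 3 reached the level of the lower mutant arrays, and the other wild-type arrays were below all mutant arrays. The log2 fold changes were 0.29 (unadjusted p = 0.0353, adjusted p = 0.871 from limma) and 0.28 (0.0384 and 0.439), both measured against the same wild-type arrays. The p stayed under 0.05 in 5 and 4 of the 9 fits that left out 1 array, and without wild-type replicate 2 the values were 0.22 and 0.21. The summed level of the macrophage markers went the other way, from 6.18 to 6.70 in wild-type hearts to 6.05 to 6.19 in null and 5.87 to 5.97 in double-heterozygous hearts, and its part in the values was not tested.

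*Edn1*, the vasoconstrictor and growth signal endothelin-1, read 3.79, 3.20 and 3.88 in wild-type, 3.89, 3.98 and 4.14 in null and 3.88, 3.57 and 3.24 in double-heterozygous hearts. All null arrays were above all wild-type arrays, the nearest at 3.89 beside 3.88, and wild-type replicate 2 was the lowest of the 9. The log2 fold change in null hearts was 0.38 (95% interval -0.09 to 0.84, unadjusted p = 0.10) and 0.16 without that array. In double-heterozygous hearts it was -0.06. Markers of endothelium, the main source of endothelin-1, had summed levels of 9.71 to 9.78 in wild-type, 9.43 to 9.68 in null and 9.50 to 9.68 in double-heterozygous hearts. *Timp3*, an inhibitor of matrix metalloproteinases, lay at 0.32 and 0.03. The remaining members, the morphogen *Gdf6*, the Wnt receptor *Fzd7*, the ephrin *Efnb2*, the receptor tyrosine kinase *Met*, the receptor phosphatase *Ptprg* and the semaphorin *Sema6d*, lay between -0.22 and 0.11 in both mutants.

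Of 10 members in intracellular signalling, 8 were measured. In null hearts 4 lay above wild-type and 4 below, in double-heterozygous hearts 6 and 2, with medians of -0.01 and 0.06. *Pdik1l*, a serine/threonine kinase, was the member with the lowest p in null hearts. It read 3.35, 3.88 and 3.79 in wild-type, 3.06, 3.35 and 3.18 in null and 3.26, 3.46 and 3.45 in double-heterozygous hearts. The null arrays lay low, though their highest met wild-type replicate 1 and stood above double-heterozygous replicate 7. In null hearts the log2 fold change was -0.48 (standard error 0.15, unadjusted p = 0.0103, adjusted p = 0.816 from limma). Its p was under 0.05 in all 9 fits that left out 1 array, and 0.061 in an unpaired t-test. In double-heterozygous hearts the log2 fold change was -0.29 (unadjusted p = 0.0861). There it was -0.45 without wild-type replicate 1, at an unadjusted p of 0.00589 in limma, and -0.18 without wild-type replicate 2. *Dlg4*, the scaffold protein PSD-95, read 3.07, 2.90 and 3.07 in wild-type, 2.85, 3.09 and 3.02 in null and 3.28, 3.40 and 3.12 in double-heterozygous hearts. The double-heterozygous arrays were above all others, by log2 fold changes of 0.26 against wild-type and 0.28 against null hearts, and p was under 0.05 in 3 and 5 of the 9 fits that left out 1 array. *Ywhaz*, a 14-3-3 adaptor protein, lay at 0.13 and 0.14. Another of its 3 probe sets gave 0.37 (unadjusted p = 0.016 in limma) and 0.30 (unadjusted p = 0.040). Its mutant arrays were all above its wild-type arrays, as for 3.63% of all genes in null and 5.15% in double-heterozygous hearts. The remaining probe set gave 0.10 and -0.13 (unadjusted p = 0.525 and 0.427 in limma). *Rasa1*, a GTPase activator for Ras, lay at 0.02 in both. The others, *Dgkz*, *Git1*, *Pdcd10* and *Tbc1d15*, lay between -0.20 and 0.17.

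Transcription factors and chromatin proteins were the largest group, with 19 of 20 members measured. In null hearts 9 lay above wild-type and 10 below, and so they did in double-heterozygous hearts, with medians of -0.01 and -0.05. *Phf6*, an X-linked chromatin protein, read 5.07, 4.31 and 4.82 in wild-type, 5.13, 5.21 and 5.02 in null and 4.93, 5.37 and 5.44 in double-heterozygous hearts. Wild-type replicate 2 was far below the other arrays and the groups overlapped. The log2 fold changes were 0.39 (unadjusted p = 0.0826) and 0.51 (unadjusted p = 0.0292, adjusted p = 0.410 from limma), and 0.18 and 0.30 without that array. Without both arrays that carry *Xist* the value in double-heterozygous hearts was 0.84, and in that fit *Phf6* met the study's thresholds and *Ddx5* did not.

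*Mnt*, a repressor that competes with Myc for its partner Max, read 3.93, 3.93 and 3.65 in wild-type, 4.08, 4.01 and 4.20 in null and 3.84, 3.93 and 3.93 in double-heterozygous hearts. The null arrays stood above all others. The log2 fold change was 0.26 in null hearts (unadjusted p = 0.0379, adjusted p = 0.871 from limma) and 0.16 without wild-type replicate 3, and 0.06 in double-heterozygous hearts. *Mab21l1*, a developmental gene of the eye and brain, read 2.42, 3.04 and 2.25 in wild-type, 2.08, 2.04 and 2.30 in null and 1.72, 2.38 and 2.01 in double-heterozygous hearts. Its wild-type replicate 2 was far above the rest. The log2 fold changes were -0.43 and -0.53, and -0.20 and -0.30 without that array. *E2f5*, an E2F factor of cell cycle repression, lay at 0.35 and 0.28 (unadjusted p = 0.0622 and 0.130), and at 0.23 and 0.15 without wild-type replicate 2. *Jund*, an AP-1 factor, lay at -0.07 and -0.31, the latter -0.19 without wild-type replicate 2, and its second probe set at -0.03 and 0.05. *Tbp*, the TATA-binding protein, lay at -0.25 and 0.07, and at 0.05 in null hearts without null replicate 5, its lowest array. The other 13, *Bcl7a*, *Crem*, *Fosb*, *Hmgn1*, *Ncoa3*, *Phc2*, *Pias3*, *Pogk*, *Setbp1*, *Tgif2*, *Tspyl4*, *Ubn1* and *Zbtb4*, lay between -0.22 and 0.28, none at an unadjusted p under 0.05.

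**Figure D4:**
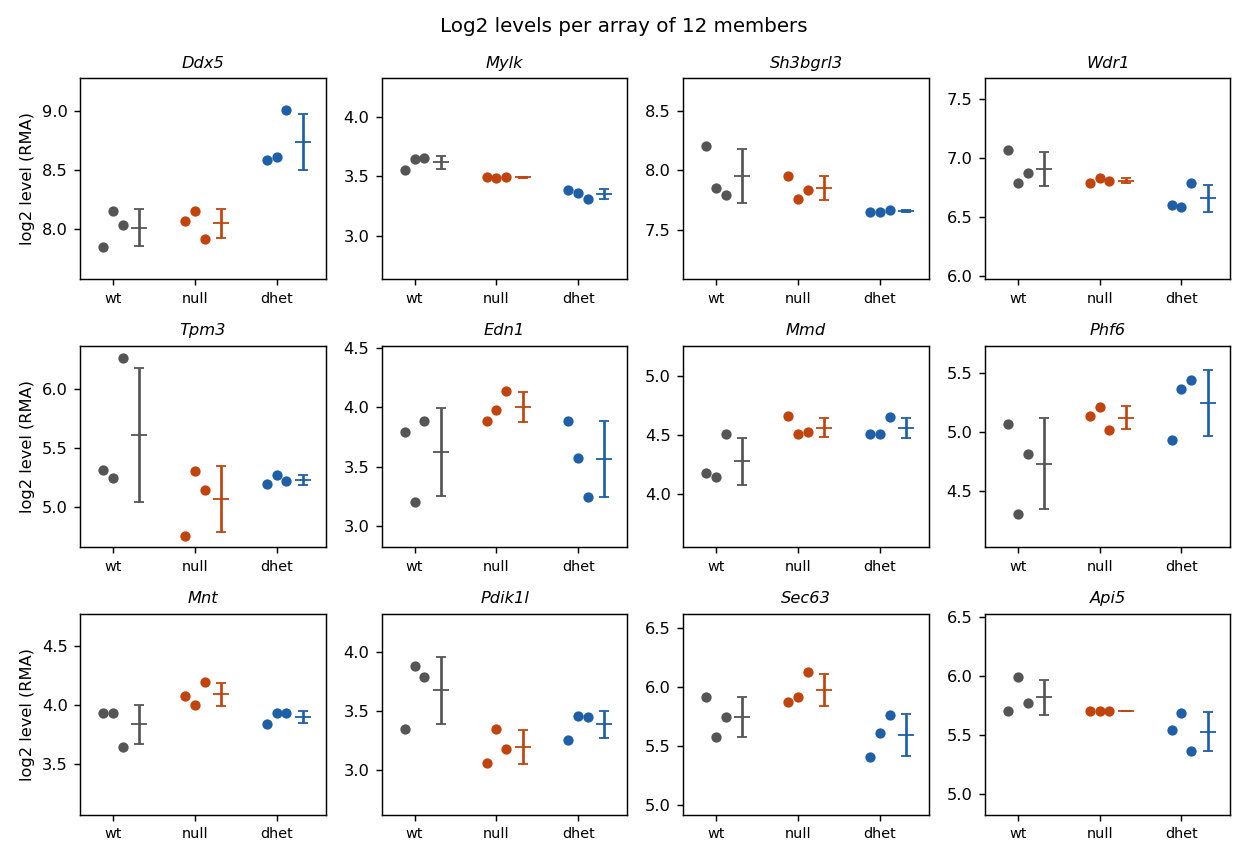
Log2 level (vertical axes) of 12 members on each of the 9 arrays (points), with the mean and SD of wild-type (wt), *miR-1-1* null (null) and double-heterozygous (dhet) hearts as a bar beside them. *Ddx5* is highest in double-heterozygous hearts, *Mylk* steps down from 3.55 to 3.65 through 3.49 to 3.50 to 3.31 to 3.38 without overlap, and in *Tpm3* and *Phf6* a single wild-type array stands apart.

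The 13 members of membrane traffic and transport had 8 above wild-type in null and 6 in double-heterozygous hearts, with medians of 0.10 and -0.03. *Sec63*, a translocon partner at the endoplasmic reticulum, read 5.91, 5.58 and 5.75 in wild-type, 5.87, 5.92 and 6.13 in null and 5.41, 5.61 and 5.76 in double-heterozygous hearts. The mutants did not overlap with each other, and both overlapped with wild-type. The log2 fold change between them was -0.38 (unadjusted p = 0.017, adjusted p = 0.612 from limma), and -0.30 without null replicate 6 and -0.28 without double-heterozygous replicate 7. *Lin7c*, a scaffold of polarised membranes, read 7.56, 7.46 and 7.27 in wild-type, 7.64, 7.48 and 7.74 in null and 7.34, 7.39 and 7.31 in double-heterozygous hearts, a difference between the mutants of -0.27 that again had no overlap. *Tnpo2*, a nuclear import receptor, lay at 0.10 and -0.26, the latter -0.17 without wild-type replicate 3 or double-heterozygous replicate 9. *Snap25*, a SNARE protein of neurons, was at 1.64, 1.70 and 1.20 in wild-type, 1.77, 2.00 and 1.81 in null and 1.67, 1.70 and 1.89 in double-heterozygous hearts. These values lie around the level of the receptor genes, so the log2 fold change of 0.35 in null hearts (unadjusted p = 0.0378), which was 0.19 without wild-type replicate 3, is one between dim signals. The clathrin heavy chain *Cltc*, the coatomer and adaptor subunits *Arcn1* and *Ap3d1*, and *Clcn3*, *Mfsd14a*, *Osbpl7*, *Rrbp1*, *Slc37a3* and *Snx2* lay between -0.29 and 0.18.

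In the ubiquitin system, 8 of 9 members were measured, and 3 lay above wild-type in null and 1 in double-heterozygous hearts, with medians of -0.04 and -0.14. *Kctd13*, a substrate adaptor of cullin-3 ligases, read 3.85, 4.01 and 4.05 in wild-type, 3.98, 3.89 and 3.85 in null and 3.73, 3.48 and 3.83 in double-heterozygous hearts. The double-heterozygous arrays were below all others. Their log2 fold change from wild-type was -0.29 (unadjusted p = 0.0271, adjusted p = 0.403 from limma), and -0.19 without replicate 8. *Ube2h*, a ubiquitin-conjugating enzyme, read 5.47, 5.25 and 5.11 in wild-type, 5.79, 5.31 and 5.30 in null and 5.12, 5.02 and 5.22 in double-heterozygous hearts. The mutants did not overlap and differed by -0.35 (unadjusted p = 0.0462), or -0.19 without null replicate 4, and the second probe set gave -0.36. *Usp33*, a deubiquitinase, was the one member above wild-type in double-heterozygous hearts, at 0.07. *Fbxo33*, *Rnf138*, *Trim2*, *Ube4a* and *Wdr48* lay between -0.24 and 0.05.

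Enzymes of metabolism and chaperones had 4 of 8 members above wild-type in null and 5 of 8 in double-heterozygous hearts, and 0 at an unadjusted p under 0.05 or an adjusted one in limma. *Ppib*, a cyclophilin of the endoplasmic reticulum, read 8.22, 8.36 and 8.09 in wild-type, 8.32, 8.49 and 8.53 in null and 8.36, 8.39 and 8.33 in double-heterozygous hearts. Its groups overlapped, with log2 fold changes of 0.22 (unadjusted p = 0.0543) and 0.14. *Gnpnat1*, an enzyme on the way to UDP-N-acetylglucosamine, lay at -0.44 and -0.27. These values were -0.28 without null replicate 5 and -0.10 without double-heterozygous replicate 8, -0.18 without wild-type replicate 1 and -0.45 without double-heterozygous replicate 9, the last 3 in double-heterozygous hearts, while a probe set listed for it and *Styx* gave -0.18 and 0.10. *Adpgk*, *Azin1*, *Bag4*, *Gnpda2*, *Hs3st3b1* and *Ust* lay between -0.12 and 0.14. Both members that act in cell survival lay below wild-type. *Api5*, an inhibitor of apoptosis, read 5.70, 5.99 and 5.77 in wild-type, 5.70 on each null array and 5.54, 5.69 and 5.36 in double-heterozygous hearts. The double-heterozygous arrays were below all others, the nearest at 5.69 beside 5.70, at a log2 fold change of -0.29 (unadjusted p = 0.0293), or -0.21 without wild-type replicate 2. *Blcap* lay at -0.27 and -0.22.

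Genes of the machinery through which a microRNA acts were set beside its predicted targets. Of 22 listed genes for microRNA processing, Argonaute proteins, their TNRC6 partners and messenger decay, 19 were measured. At an unadjusted p under 0.05 against wild-type, 0 were higher and 1 lower in null hearts, and 0 higher and 3 lower in double-heterozygous hearts, with 0 at an adjusted p under 0.05 in limma. Of all genes 3.15% and 6.15% were lower at such a p. The decapping enzyme *Dcp2* was the lower gene in null hearts (-0.25) and lay at -0.21 in double-heterozygous hearts. There *Ago4*, an Argonaute protein, lay at -0.54 and *Tnrc6c*, a partner of Argonaute in silencing, at -0.27, with adjusted p = 0.352 and 0.403 from limma.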

How the data were processed

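RNA was amplified and hybridized to Affymetrix mouse Gene ST arrays. The values the authors deposited are log2 levels per probe set after RMA, which corrects background, equalizes distributions between arrays and summarizes probes by median polish. Affymetrix Power Tools 1.12.0 and RMA are named in the submitters' notes on processing. For the array, the sources used here give no genome build, so no probe coordinates are printed. The table holds 41345 probe sets, with 1 gene symbol for 23521 (23328 matched by gene ID to the RefSeq gene table), several for 1820 and none for 16004. Probe sets of 1 symbol were used, the brightest per gene, with no further normalization and no filter, which left 22180 genes. All 9 arrays were fitted with 1 mean per genotype (6 residual degrees of freedom) by lmFit and eBayes of limma 3.58.1 in R 4.3.3, and p-values were adjusted by Benjamini-Hochberg over all genes. The code of the fit was run on simulated arrays with independent normal noise. Those lack the equal values of the real arrays, so they do not test the fit on such data. Tables and figures were made with Python 3.11.15 and matplotlib 3.10.9. The number of arrays limits the precision.

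The members and lists were chosen with earlier results of these data known. One member is not reported here by name. By rule, members with values given were those past a threshold, at an unadjusted p under 0.05, with the 3 highest or lowest fold changes of a comparison, with the lowest p of a role group, and *Mylk*, 24 in all. Others with values given, among them *Ywhaz*, *Timp3*, *Rasa1*, *Usp33*, *Blcap* and *Anxa2*, were chosen after their values were seen. Equal values were counted at a tolerance of 1e-06. Alternatives were the arrays fitted, the moderation of variances, an unpaired t-test, a filter, other normalizations, other uses of probe sets, array weights, a sex-linked covariate and leaving out each array. Lists of seed matches in 3′ UTRs were planned and not run, because no genome was used.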

Additional observations from a re-analysis of the deposited data

How the results depend on the processing

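No paired analysis was possible because the labels give no litter or other pairing, and the replicate numbers only count the samples. Leaving out 1 array at a time, the members at an unadjusted p under 0.05 numbered 2 to 7 in null, 5 to 10 in double-heterozygous and 2 to 7 in the direct comparison, those past the study's thresholds 0 to 0, 0 to 1 and 0 to 1, and those at an adjusted p under 0.05 always 0. The medians were -0.015 to 0.028, -0.036 to -0.013 and -0.072 to -0.027. Counts at an unadjusted p under 0.05 (4, 10 and 5) became 1 and 4 against wild-type with only the 2 genotypes compared in the fit, 1 and 3 with an unpaired t-test, 7 in null hearts after quantile normalization, and, without the 2 arrays that carry *Xist* (chosen after seeing the data), 7 in null hearts and 2 in the direct comparison. The t-test left 0 members past the study's thresholds. The median in double-heterozygous hearts was 0.015 after cyclic loess, -0.045 with the mean of a gene's probe sets and -0.060 with the most variable one, and the direct median was -0.0087 after quantile normalization, -0.0070 after cyclic loess and -0.045 with *Eif2s3y* as a covariate. The cause of these shifts was not tested. Changes of sign were counted only for the 24 members chosen by rule. The 35 changes among these were all at an unadjusted p of 0.05 or more. Leaving out 1 array, null against wild-type values ran from -0.047 to 0.109 for *Ddx5*, -0.078 to 0.050 for *Dlg4*, -0.217 to 0.051 for *Jund*, -0.183 to 0.028 for *Sh3bgrl3*, -0.479 to 0.050 for *Tbp* and -0.064 to 0.203 for *Tnpo2*. Double-heterozygous against wild-type values ran from -0.275 to 0.102 for *Edn1*, -0.031 to 0.109 for *Mnt* and -0.028 to 0.127 for *Tbp*, and direct ones from -0.244 to 0.023 for *E2f5*, -0.013 to 0.341 for *Gnpnat1*, -0.269 to 0.057 for *Mab21l1* and -0.054 to 0.041 for *Mmd*. With the covariate, null hearts had -0.045 for *Ddx5* and 0.00036 for *Dlg4*, and the direct values were 0.0057 for *Mab21l1* and 0.033 for *Mmd*. Without the *Xist* arrays, null hearts had -0.047 for *Ddx5*, 0.0073 for *Dlg4* and 0.028 for *Sh3bgrl3*, double-heterozygous hearts 0.026 for *Sec63*, and the direct values were 0.057 for *Mab21l1* and 0.018 for *Mmd*. *Mmd* was at 0.044 and 0.045 after quantile and cyclic loess normalization. Shared probe sets gave 0.0091 for *Tbp* in null and 0.101 for *Gnpnat1* in double-heterozygous hearts.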
